A study of Mus with 8 samples.

Results

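C/EBPβ binding in Prep1 down-regulated (P) 3T3-L1 cells was compared with that in control (C) cells 4 h after adipogenic induction. The members are the peaks of both 4 h lists, 13525 in C cells and 26713 in P cells, taken by the time and cell labels of the lists. These 40238 peaks are most of the 42729 in the 4 lists of the series, the other 2491 coming from cells taken at day −2, before induction. 3T3-L1 is a mouse preadipocyte line. P cells carried a Prep1 shRNA and C cells a scrambled shRNA, both from a pLKO.1 lentivirus and selected with puromycin. Both kinds of cells had been given 1 µM dexamethasone, 0.5 mM IBMX and 1 µg/ml insulin in medium with 10% FBS, and the same C19 antibody was used on both. Each kind of cell gave 1 ChIP library and 1 input library, so the comparison rests on 1 cell line and 1 library of each kind, without replicates. No test between the conditions was possible. Intervals are 95% intervals and cover counting error in these libraries alone, Clopper-Pearson for shares and ratios of peak numbers, and combined from those of both shares for a difference. Culture, antibody efficiency and Prep1 level cannot be told apart with 1 library each.

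C/EBPβ is a basic leucine zipper transcription factor that is induced early in adipogenesis. It binds regulatory DNA as a dimer and acts ahead of C/EBPα and PPARγ, the factors that maintain the adipocyte program. Prep1 is a homeodomain protein of the TALE class that binds DNA together with Pbx proteins. In ChIP-seq, chromatin fragments held by the antibody are sequenced and mapped, and a stretch where they pile up over the input chromatin is called a peak. Each peak has a width and a summit, the base with the highest pile. Fold enrichment is the ratio of fragments at the summit to the local background from input, with 1 added to both, and −log10 p is its Poisson significance in that library. A −log10 p of 5 was the lowest allowed, so a site missing from a list was under that limit and not necessarily unbound. Genes, motifs and sequences under the peaks were not analysed here.

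The libraries were alike in median background, and in depth, which the authors' down-sampling of mapped reads had set. Depth before that step cannot be read from the lists. The numbers of reads implied by the genome-wide background were 7.84 M in C and 7.82 M in P cells, so that P cells had 0.997 of the C depth. The shortest peak, which reflects the fragment length, was 164 bp in C and 159 bp in P cells. Input background at the peaks was expressed relative to the genome-wide background of the same library. It had a median of 2.09 in C and 2.17 in P cells, and it was at least 3 at 16.5% of C peaks and 18.2% of P peaks. The genome-wide background itself was 0.476 fragments in C and 0.461 in P cells. A relative background of a few units thus stands for few fragments and takes coarse steps.

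P cells had 1.98 times as many peaks as C cells, and the ratio rose with the strength required. For peaks of 15 or more on the −log10 p scale it was 2.35, from 7661 C peaks and 17991 P peaks. At 30 or more, 2769 C peaks and 8007 P peaks gave a ratio of 2.89 (2.77 to 3.02). At 75 or more the ratio was 5.36 (4.76 to 6.06), and at 100 or more 109 C peaks and 823 P peaks gave 7.55 (6.18 to 9.31). At 150 or more 14 C peaks faced 187 P peaks. The P list was therefore longer at each threshold examined, and the ratio of peak numbers was greatest at the highest. A ratio of numbers above a limit does not give the difference in height at strong peaks.

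**Figure D1:**
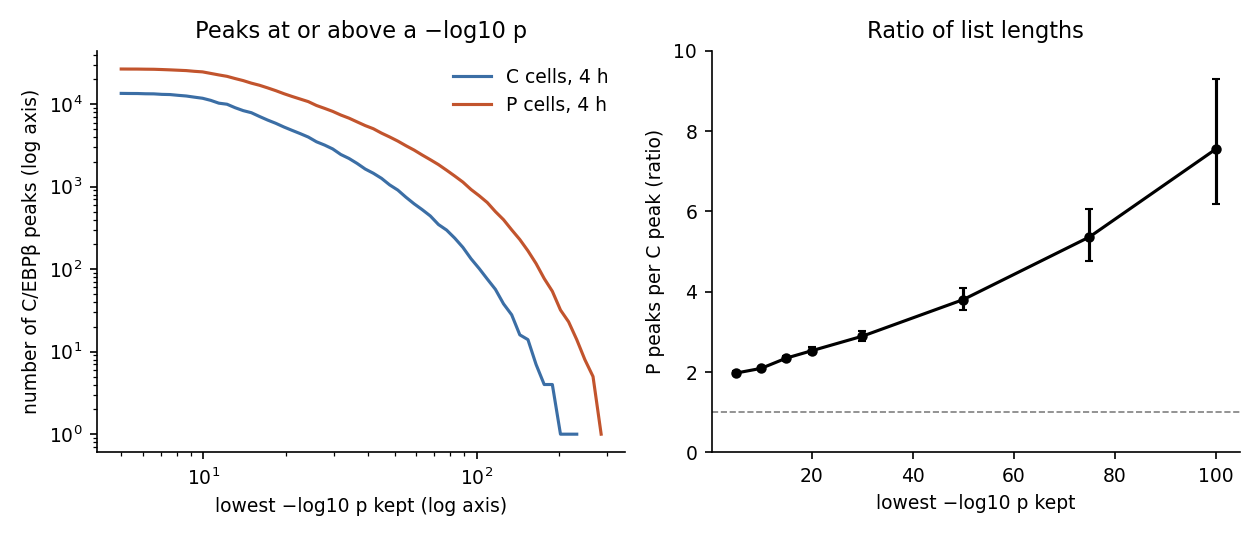
Number of C/EBPβ peaks at 4 h that reach a given −log10 p in C and P cells (left, log axes) and the number of P peaks per C peak (right, points with 95% counting intervals, dashed line at 1). The P curve lies above the C curve along its whole length, and the ratio goes from 1.98 at 5 to 7.55 at 100.

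Peaks of the same rank were set side by side. The lists differ in length, so the same rank lies nearer the end of the C list, and at rank 13525, the last C peak, the piles were 7 fragments in C and 21 in P cells. The peak of rank 100 by −log10 p had 103 in C and 172 in P cells, that of rank 1000 had 49.2 and 92.7, and that of rank 5000 had 20.3 and 42.0. In fold enrichment, rank 10 had 53.0 in C and 73.1 in P cells, and rank 5000 had 10.6 and 18.4. Values were higher in P cells at every rank examined. In fragments at the summit the P to C ratio widened down the list, from 1.16 at rank 10 (173 and 201 fragments) through 1.51 at rank 100 (75 and 113) and 1.70 at rank 1000 (40 and 68) to 1.80 at rank 5000 (20 and 36). At these ranks the tallest piles were closest in height, and the widening goes with list length as well. The maximum pile was 271 fragments in C and 265 in P cells.

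The lists were then joined by overlap of at least 1 bp. A peak that overlapped one in the other list was called common, and otherwise exclusive. Of the C peaks 11616 were common (85.9%, 85.3 to 86.5) and 1909 exclusive. Of the P peaks 11534 were common (43.2%, 42.6 to 43.8) and 15179 exclusive. Joins were nearly all one to one. Only 2 C peaks overlapped 2 P peaks, whereas 84 P peaks spanned 2 C peaks each. These 84 had a median width of 745.5 bp, and the C summits beneath them lay 281 to 1055 bp apart, with a median of 442.5 bp.

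Whether a peak was found in the other list depended strongly on its height. Each list was cut by its own −log10 p into 4 strength classes with equal numbers of peaks. In the C list, 71.4% (69.9 to 72.9) of the weakest class (−log10 p up to 11.8) and 98.8% (98.4 to 99.2) of the strongest class (26.8 to 236) were common. In the P list the share went from 15.6% (14.8 to 16.5) in the weakest class (5.05 to 13.6) through 24.99% and 47.3% to 84.8% (83.9 to 85.7) in the strongest (34.3 to 285.1). Both lists therefore lost their exclusive peaks as strength grew, the P list later than the C list. At a −log10 p of at least 30 there were 20 C-exclusive and 1505 P-exclusive peaks. At 50 or more there were 1 and 221, at 75 or more 0 and 30, and at 150 or more none in either list. With the same number of peaks taken from each list, the strongest 13525, the shares common were 66.4% of C peaks and 65.8% of P peaks. They were then 40.4% in C and 39.4% in P cells in the weakest class, and 94.6% and 94.9% in the strongest. The P list thus did not lose its exclusive peaks later at equal length.

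With the full lists, the order also held within classes of pile height. Among peaks with 10 to 14 fragments at the summit, 72.8% were common in C cells and 12.7% in P cells. Among peaks with 20 to 29 fragments the shares were 95.9% and 45.01%, and at 50 fragments or more 99.6% and 95.7%. Low and middle piles in C cells thus had a P partner far more often than the reverse, and the gap was small at the highest piles. The C list offers fewer partners, and these classes were not recomputed with lists of equal length.

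Exclusive peaks were lower and narrower than common ones in both lists. C-exclusive peaks had a median fold enrichment of 7.38 (quartiles 6.35 and 8.63) and a median width of 188 bp, against 9.60 (7.45 and 13.7) and 242 bp for common C peaks. P-exclusive peaks had a median fold enrichment of 9.27 (7.55 and 11.6) and a width of 213 bp, against 15.5 (10.7 and 22.9) and 285 bp for common P peaks. The classes overlapped in fold enrichment, and P-exclusive peaks were about as high as the common peaks of C cells. Few exclusive peaks lay on a site listed before induction. A day −2 peak of either cell type lay under 28 C-exclusive peaks (1.47%, 0.977 to 2.11) and 157 P-exclusive peaks (1.03%, 0.880 to 1.21), against 15.04% of common C peaks and 15.1% of common P peaks. Of the 28, 23 overlapped a day −2 peak of C cells and 6 one of P cells. Of the 157, 24 overlapped a day −2 peak of C cells and 144 one of P cells. The day −2 lists differ in length, with 838 peaks in C and 1653 in P cells, and common P peaks also overlapped a day −2 peak of P cells (12.9%) more often than one of C cells (6.66%).

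Each of the 11616 common C peaks was given 1 partner, the strongest P peak that touched it. Over these pairs, fold enrichment had a median of 9.60 in C and 15.5 in P cells. It was higher in P cells in 9545 pairs (82.2%, 81.5 to 82.9). The median log2 P/C ratio was 0.62, with quartiles of 0.17 and 1.06, which is a 1.54-fold difference. Fold enrichment was at least 2-fold higher in P cells in 3264 pairs, 28.1% of all, and at least 2-fold lower in 108 pairs, 0.93% of all. These shares are the background against which all classes of pairs are read below. In fragments at the summit the median log2 P/C ratio was 0.71.

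The local input background is the denominator of fold enrichment, so choosing pairs by an extreme ratio also selects for an extreme background. Over all pairs the median log2 P/C ratio of the relative background was 0.06, with medians of 2.09 in C and 2.17 in P cells. Most of these backgrounds are few fragments, so their ratios are coarse. In the 3264 pairs with at least 2-fold higher fold enrichment in P cells it was −0.46, and the background was lower in P cells in 68.7% of them. Nearly all of these pairs, 3248, nevertheless had more fragments in P cells, with a median log2 ratio of 1.17. In the 108 pairs with at least 2-fold lower fold enrichment in P cells the background ratio was 1.84, and the background was higher in P cells in all but 3 of them. Fragments were fewer in P cells in 68 of these pairs and more in 37. In fragments alone only 24 pairs were at least 2-fold lower in P cells. The count of lower pairs also fell to 25 with lists of equal length, and to 14 without peaks of high input background, where the count of higher pairs was 1999. Equal lists drop the weaker P peaks and the filter drops peaks of high background, so both settings remove such pairs by construction. Both also leave fewer pairs in all, so these counts cannot be read as shares against the 3264 and 108. The part of the background in the ratio was not tested further.

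**Figure D2:**
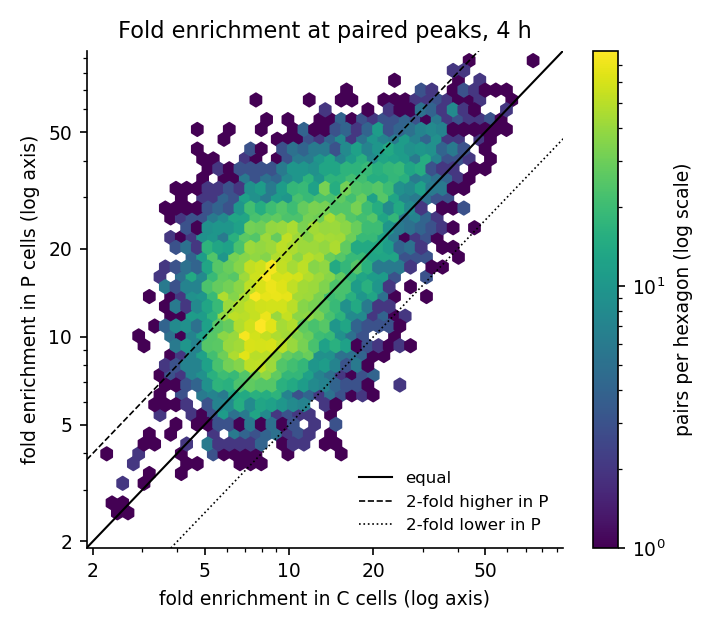
Fold enrichment of the 11616 overlapping pairs in C cells (horizontal) and P cells (vertical), both on log axes, with the number of pairs per hexagon as colour. Most pairs lie above the solid line of equality, 3264 on or above the dashed line of 2-fold higher enrichment in P cells and 108 on or below the dotted line of 2-fold lower enrichment.

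How the difference depended on site strength changed with the library by which strength was measured. Strength of a pair was first taken from both libraries, as the geometric mean of their −log10 p values. Fold enrichment was then higher in P cells in 74.4% (72.8 to 76.0) of the weakest of 4 equal classes of pairs, in 82.0% and 85.0% of the middle classes and in 87.2% (86.0 to 88.4) of the strongest. The median log2 P/C ratio was 0.39, 0.66, 0.77 and 0.70 in this order, and the share of pairs at least 2-fold higher in P cells was 15.05%, 29.6%, 37.5% and 30.2%. All 3 measures were lowest at the weakest pairs. The share of higher pairs was greatest in the strongest class, and the median ratio and the 2-fold share were greatest in the third. In the strongest class the median pile was 34.5 fragments in C and 59 in P cells.

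Ordered by −log10 p in C cells alone, the median log2 ratio fell from 0.91 in the weakest class through 0.64 and 0.51 to 0.45 in the strongest. Ordered by −log10 p in P cells alone, it went the other way, from 0.12 through 0.59 and 0.89 to 0.96. Each order uses a value that also enters the ratio, so the trends are a description of these lists only. The trend by both libraries reversed with lists of equal length: the share higher in P cells in the strongest class then lay 10.1 percentage points below that in the weakest, in place of 12.8 above. The median log2 ratio by both libraries was then 0.88, 0.78, 0.78 and 0.68 from the weakest class to the strongest. In the weakest class by P cells alone it was 0.50, in place of 0.12. A positive median held in each of the 12 strength classes of the main lists.

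**Figure D3:**
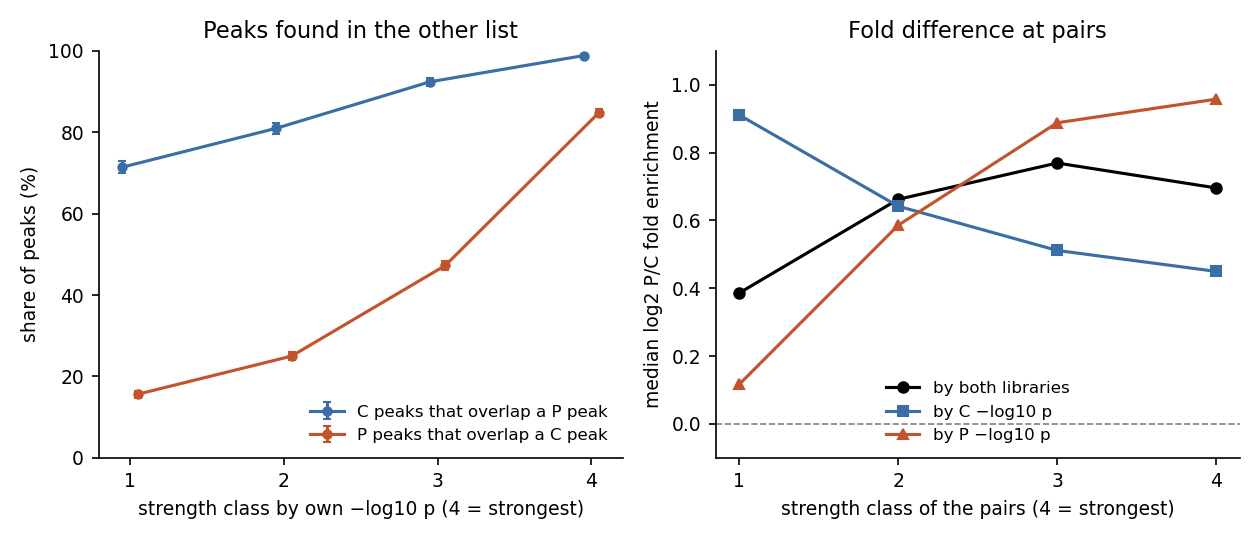
Left, share of C and P peaks that overlap a peak of the other list by strength class of its own list, with 95% counting intervals. Right, median log2 P/C fold enrichment of the pairs by strength class, with strength taken from both libraries (circles), from C cells (squares) or from P cells (triangles); the dashed line marks no difference, and the squares go from 0.91 to 0.45 while the triangles go from 0.12 to 0.96.

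Pairs were also divided by whether the site had been listed before induction. The 990 pairs with a day −2 peak in P cells only had the highest median log2 P/C ratio at 4 h, 0.80, and 88.8% (86.7 to 90.7) were higher in P cells. The 263 pairs with a day −2 peak in C cells only had the lowest, 0.31, and 66.9% (60.9 to 72.6) were higher in P cells. The 512 pairs with a day −2 peak in both had a median of 0.60, and the 9851 with none had 0.61. Pairs at least 2-fold higher made up 37.8%, 16.3%, 23.2% and 27.7% of these classes. Pairs with an earlier site had taller peaks, with a median C fold enrichment of 14.1 for P only, 14.6 for C only and 19.7 for both, against 9.07 for neither. Within the strongest class by C −log10 p the medians were 0.66 for P only (528 pairs), 0.15 for C only (154 pairs), 0.52 for both (416 pairs) and 0.39 for neither (1806 pairs). The side on which a site was listed before induction was thus also the side with the relatively higher peak at 4 h, in all pairs and within that class, although most C-only pairs were still higher in P cells.

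The pairs with the most extreme ratios were looked at singly, among pairs with a −log10 p of at least 30 in the stronger library. All positions are mm9. The highest ratio belonged to a C peak at chr2:71337435-71337598, where enrichment was 4.52-fold in C cells and 50.6-fold in P cells, a log2 ratio of 3.49. Its P partner was 973 bp wide and also spanned a taller C peak at chr2:71337859-71338295. That C peak had a fold enrichment of 33.2, 69 fragments against 98 in P cells, a log2 ratio of 0.61 and a summit 18 bp from the P summit. The third highest ratio had the same form. A C peak at chr19:30181245-30181512 with a fold enrichment of 7.52 was joined to a P peak of 67.2 that was 1494 bp wide. The other C peak below that P peak, at chr19:30181728-30182520, had a fold enrichment of 49.6, a log2 ratio of 0.44 and a summit 10 bp from the P summit, and a day −2 peak of both cell types lay there. In both cases the extreme ratio compared a side peak of C cells with the main pile of P cells.

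The second highest ratio came from one peak in each list, at chr13:104188147-104188442. Fold enrichment was 4.52 in C and 43.8 in P cells, a log2 ratio of 3.28, with summits 10 bp apart. The piles were 17 and 63 fragments, a log2 ratio of 1.89, while the relative background was 6.27 in C and 1.00 in P cells. The lowest ratios were found in single joins with close summits. At chr6:34345916-34346226 fold enrichment was 25.3 in C and 6.66 in P cells, a log2 ratio of −1.93, with 45 and 19 fragments and a relative background of 1.71 and 4.34. At chr11:60228943-60229387 it was 24.96 and 7.09, a log2 ratio of −1.82, with 37 and 14 fragments and a relative background of 1.096 and 2.42. At chr1:137830314-137830601 it was 19.7 and 6.19, a log2 ratio of −1.67, but the piles were 38 and 30 fragments and the relative background 2.06 and 8.68. Of these 3 sites, the first and second were lower in P cells in fragments by over 1 on the log2 scale, and the last by 0.34. The background was higher in P cells at all 3. Backgrounds of this size, like those at the chr13 site, stand for few fragments.

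Summits of paired peaks lay close together. The median shift was 15 bp, with quartiles of 6.75 and 32 bp, and 90% of pairs were shifted by 60 bp or less. Summits were within 25 bp of each other in 67.7% (66.8 to 68.5) of pairs and over 100 bp apart in 509 pairs (4.38%). The median signed shift was 1 bp: the P summit lay at the higher coordinate in 5865 pairs, at the lower in 5531 and on the same base in 220. Pairs within 25 bp were more frequent at stronger sites, from 53.9% in the weakest class of pairs through 64.4% and 71.4% to 81.0% in the strongest. The median −log10 p in C cells fell accordingly, from 20.5 at shifts of 0 to 10 bp to 12.5 at shifts over 100 bp.

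The median fold difference was greatest at the widest shifts, by an amount that varied with the setting. The median log2 P/C ratio was 0.60 at 0 to 10 bp, 0.61 at 11 to 25 bp, 0.61 at 26 to 50 bp, 0.67 at 51 to 100 bp and 0.79 over 100 bp. The binomial 95% interval of the median was 0.58 to 0.63 at 0 to 10 bp and 0.71 to 0.85 over 100 bp. With lists of equal length the medians were 0.72, 0.77, 0.80, 0.95 and 1.03 in the same order. At a −log10 p limit of 10 they were 0.58, 0.58, 0.57, 0.59 and 0.72 (0.54 to 0.81), and with reciprocal overlap of 50% that over 100 bp was 0.71 (0.54 to 0.79), so the interval of the last class then covered the value of the first. Pairs at least 2-fold higher in P cells made up 26.9%, 27.4%, 27.8%, 32.1% and 36.7%. Pairs that were not one to one, nearly all of them sharing a P peak with another C peak, were 87 of the 509 pairs shifted by over 100 bp (17.1%), and under 1% of each other class. Without them the median log2 ratio over 100 bp was 0.70 over 422 pairs, in place of 0.79, and the medians of the other classes were 0.60, 0.61, 0.61 and 0.67. The share of these pairs higher in P cells was 79.9% over 100 bp and 82.0% at 0 to 10 bp. P peaks in the class over 100 bp were wide, with a median of 489 bp against 281 bp at 0 to 10 bp, while C peaks had 292 and 245 bp. In one-to-one pairs the medians over 100 bp were 446 bp in P and 327.5 bp in C cells.

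**Figure D4:**
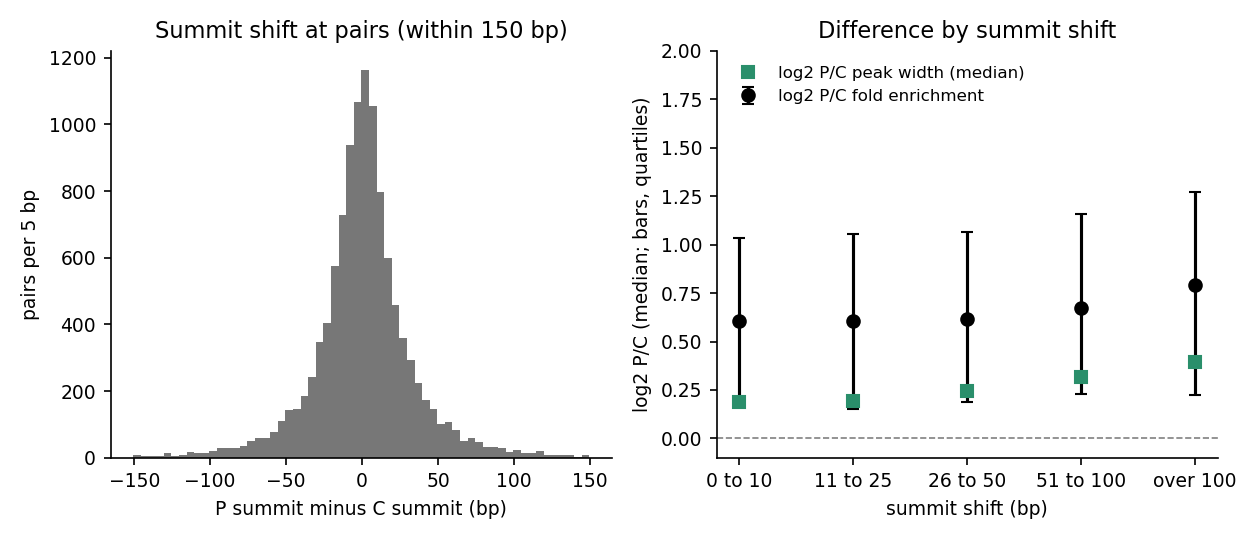
Left, distance from the C summit to the P summit over pairs with a shift of at most 150 bp, in bins of 5 bp; the distribution is centred near 0 on both sides. Right, log2 P/C fold enrichment by class of summit shift (black, median with quartiles) and median log2 P/C peak width (green squares); the medians of fold enrichment lie between 0.60 at the closest summits and 0.79 over 100 bp.

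Among pairs with a −log10 p of at least 30 in the stronger library, the 3 largest shifts came from P peaks that spanned 2 C peaks. The widest was 1013 bp, between a C peak at chr19:27334192-27334366 and a P peak of 1378 bp, at which fold enrichment was 6.59 and 11.98. The C peak had 10 fragments and the P summit 47. A second C peak below the same P peak, at chr19:27334900-27335532, had a fold enrichment of 9.02 and a summit 42 bp from that of P cells. A shift of 716 bp on chromosome 11 joined a C peak at chr11:78895188-78895479, with 44 fragments, to a P summit with 75 fragments. The second C peak there, at chr11:78894488-78895006, also had 44 fragments, and its summit was 14 bp from the P summit. At the second largest shift, 759 bp at chr18:36867934-36868112, the other C summit under the P peak was 278 bp from that of P cells. A C summit close to the P summit was thus present at 2 of these 3 sites.

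P peaks were on the whole wider. In 74.3% (73.4 to 75.04) of pairs the P peak was wider, with median widths of 242 bp in C and 286 bp in P cells and a median log2 ratio of 0.21. The share was 64.5% in the weakest class of pairs and 75.7%, 77.2% and 79.5% in the others. Width rose with pile height in both lists. In classes of pile height, peaks with 10 to 14 fragments were 189 bp wide in C and 182 bp in P cells. Those with 20 to 29 fragments were 260 and 245 bp wide, and those with 30 to 49 fragments 297 and 294 bp. Those with 50 or more were 326 and 355 bp wide. Divided by the shortest width of its list, the width was 1.59 in C and 1.54 in P cells at 20 to 29 fragments, 1.81 and 1.85 at 30 to 49, and 1.99 and 2.23 at 50 or more. P peaks were thus the narrower ones at low piles. The class of 50 or more fragments has no upper limit and held 515 C and 2483 P peaks. Pile heights were not matched within it, so its widths do not compare peaks of equal height. The strong pairs with the largest width ratios, on chromosomes 19, 2 and 8, all had a P peak over 1000 bp that spanned 2 C peaks. At chr8:33445274-33445437 the C peak was 164 bp wide, and the P peak over it measured 1102 bp.

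Sites stood closer together in the longer list of P cells. The nearest other summit of the same list was at a median distance of 21.9 kb in C cells (quartiles 6.02 and 64.4 kb) and 11.7 kb in P cells (3.43 and 33.8 kb). The closest summits within a list were 281 bp apart in C and 274 bp in P cells.

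P peaks that stood alone were less often common. Of P peaks under 1 kb from another P summit 43.7% (41.7 to 45.7) overlapped a C peak, and the share was 46.2% at 1 to 5 kb, 44.6% at 5 to 20 kb, 41.3% at 20 to 100 kb and 34.9% (32.8 to 37.0) at 100 kb or more. Isolated P peaks were also weaker, with a median −log10 p of 17.5 at 100 kb or more against 20.5 under 1 kb and 21.5 at 1 to 5 kb. Within the strength classes of the P list the dependence on spacing was much smaller than the 8.83 percentage points between the extreme classes of the whole list. In the strongest class the shares were 83.7%, 85.8%, 84.9%, 84.9% and 81.1% in order of distance, and in the weakest class 15.1%, 15.1%, 16.1%, 16.5% and 12.9%. At every spacing the strength classes thus lay much farther apart than the spacing classes did within a class of strength. With lists of equal length the difference between the extreme classes of spacing was 3.46 points, with an interval of −0.68 to 7.50 that includes 0.

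**Figure D5:**
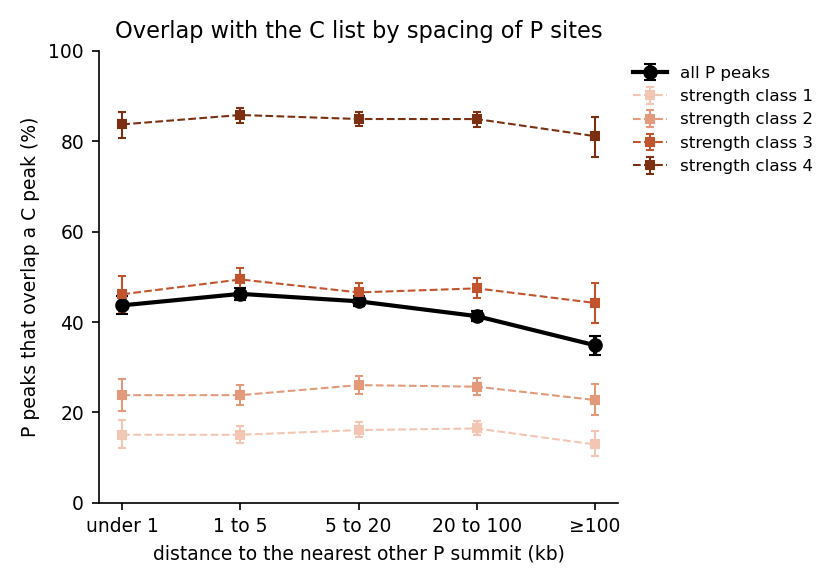
Share of P peaks that overlap a C peak by distance to the nearest other P summit, for all P peaks (black) and for each strength class of the P list (coloured, dashed), with 95% counting intervals. The black line goes from 43.7% to 34.9%, while the lines of the strength classes are nearly flat and far apart.

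In the C list isolated peaks were also less often common. Of C peaks under 1 kb from another C summit 91.0% (88.8 to 92.8) were common, against 83.0% (81.4 to 84.6) of those at 100 kb or more. Within strength classes the gap between these extremes of spacing was clear of the counting intervals in the middle classes alone. In the second class the shares under 1 kb and at 100 kb or more were 89.2% (84.1 to 93.1) and 78.2% (74.8 to 81.4), and in the third class 96.7% (93.3 to 98.6) and 88.8% (85.8 to 91.3). In the weakest class they were 78.7% (72.5 to 84.0) and 71.5% (67.7 to 75.1), and in the strongest 99.5% (97.3 to 99.99) and 98.2% (96.4 to 99.2), with overlapping intervals in both. At 20 to 100 kb the share in the weakest class was 69.1% (66.4 to 71.7), an interval below that under 1 kb. At pairs, the median log2 P/C fold enrichment was 0.66, 0.67, 0.64, 0.57 and 0.53 with growing distance to the next P summit, and the share of pairs higher in P cells went from 84.2% to 78.7%. By distance to the next C summit it was nearly flat, at 0.63, 0.64, 0.62, 0.61 and 0.61. At pairs, spacing in the C list thus went with little difference in the ratio, and spacing in the P list with slightly more.

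Exclusive peaks were mostly far from any peak of the other list. C-exclusive peaks lay at a median of 16.8 kb (quartiles 4.93 and 47.3 kb) from the nearest P summit, and P-exclusive peaks at 32.2 kb (9.75 and 87.1 kb) from the nearest C summit. The C list is also the shorter one. A summit of the other list was under 1 kb away for 122 C-exclusive peaks (6.39%) and 605 P-exclusive peaks (3.99%), and 100 kb or more away for 201 (10.5%) and 3302 (21.8%). Strength varied little with this distance. The median −log10 p lay between 11.2 and 12.3 in the 5 distance classes of C-exclusive peaks, and between 15.1 and 15.5 in those of P-exclusive peaks.

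The strongest isolated P-exclusive peak, at chr10:117871827-117872275, had 115 fragments and a fold enrichment of 15.7 over a relative background of 13.8. The next, at chr17:63360100-63360753, had 67 fragments, a fold enrichment of 34.0 and a relative background of 2.17, and its nearest C summit was 133 kb away. At chr6:60916969-60917367 there were 55 fragments and a fold enrichment of 34.9, with the nearest C summit at 200 kb. The background was thus high at the first of these sites and near the median or below it at the others. Isolated C-exclusive peaks had fewer fragments: the strongest, at chr3:150946848-150947122, had 34 fragments and a fold enrichment of 23.7, and the next, at chr9:123879638-123879913, had 24 fragments and 16.9. Both had a relative background of 1.00. Among exclusive peaks with a close neighbour in the other list, the strongest in P cells was at chr10:116589289-116589520. It had 106 fragments and a fold enrichment of 8.22 over a relative background of 26.1. The next, chr11:97310498-97310807, had 52 fragments and a fold enrichment of 17.6 at 581 bp from a C summit, with a relative background of 4.34. The C-exclusive peak at chr15:9002603-9002805 had 20 fragments and a fold enrichment of 12.1 at 281 bp from a P summit.

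Peaks were linked into runs when each summit was within 5 kb of the next. In P cells 3658 runs of 2 or more peaks held 8471 peaks (31.7% of the list), and in C cells 1369 runs held 2997 peaks (22.2%). Runs of 5 or more numbered 63 in P and 7 in C cells, with at most 8 and 5 peaks. The runs of P cells mixed common and exclusive peaks in 1843 cases (50.4%), held common peaks alone in 728 (19.9%) and exclusive peaks alone in 1087 (29.7%). In C cells 1058 runs (77.3%) held common peaks alone and 25 (1.83%) exclusive peaks alone. P-exclusive peaks thus stood both beside common sites and in runs without a common peak. Over the whole lists 43.2% of P peaks and 85.9% of C peaks were common. Whether the make-up of the runs departs from these shares was not tested. In the longest runs of P cells, those of 5 or more, 48.4% (43.0 to 53.8) of the 341 peaks were common, against 43.2% of the whole list.

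The run with the most P peaks held 8 over 13.3 kb, at chr6:34658625-34671926, and 6 C peaks. Along it the P peaks had fold enrichments of 7.92, 10.9, 31.0, 6.87, 29.6, 7.99, 9.23 and 11.1. The tall peaks of 31.0 and 29.6 had C partners of 13.6 (the taller of 2) and 21.1, and 3 other P peaks had C partners of 5.68, 5.72 and 4.35. The remaining 3, at 7.92, 7.99 and 9.23, were exclusive and among the lower peaks of the run. On chromosome 1 from 175968608 to 175986205, 7 P peaks had fold enrichments of 59.9, 11.9, 27.5, 10.98, 15.9, 24.4 and 13.1. Their C partners were at 30.8, 5.51, 12.7, 10.18 and 14.96, with none for the peaks of 15.9 and 13.1. All 5 common peaks of this run were higher in P cells. The third run, on chromosome 10 from 116630451 to 116647041, had 7 P peaks of which 2 were common. It lay over high input, with a median relative background of 14.01 in P and 4.45 in C cells, and its fold enrichments in P cells were 3.54 to 15.9. In this last run the background was raised together with the number of P peaks. The median relative background was 3.97 in C and 2.69 in P cells in the first run, and 1.71 and 1.38 in the second.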

How the data were processed

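The authors aligned reads to mm9 and called peaks per condition with MACS2, each ChIP library against its input after down-sampling, without stated pooling. The submitters' processing notes name Bowtie 0.12.8, SAMtools 1.3.1 and MACS2 2.0.10.20131028. The deposited lists give positions, the fold enrichment (a ratio) and the −log10 p of each peak. Summit fragments and input background were recovered from these 2 values with scipy 1.17.1 and were whole for 100% of peaks (tolerance 0.001). A scale of 0.999 was needed in the P list. The recovery, tested on simulated data, was right for 2977 of 2977 simulated C peaks and 2968 of 2968 simulated P peaks. Depth assumes a genome of 2.7e+09 bp. Further tools were numpy 2.4.6, pandas 2.3.3 and matplotlib 3.10.9 under Python 3.11.15. Strength classes, 4 per list or set of pairs, hold equal numbers.

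Named sites were the 3 pairs with the highest and lowest log2 P/C ratio, the largest shift and the largest width ratio among pairs reaching a −log10 p of 30, the 3 strongest exclusive peaks of each list at 100 kb or more and under 1 kb from the other list, and the 3 longest P runs. Members, rules and alternatives were chosen with earlier results of these data known. Alternatives tried were a −log10 p limit of 10, reciprocal overlap of 50%, summits within 100 bp, equal list lengths, nearest-summit pairing, −log10 p or fragments in place of fold enrichment, and removal of peaks with a relative background of 3 or more. Peak names in both lists carry an hour tag that differs from the labelled 4 h. The labels were followed.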

Additional observations from a re-analysis of the deposited data

How the results depend on the processing

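The main results were recomputed under 9 settings. Of 84 values, 40 stayed inside the counting interval of the main value (or within 1.5 times a count), 43 moved and 1 reversed. For 58 further results on classes and sites, 202 of 352 recomputed values moved and none reversed. Values of the named pairs on another scale were counted as moved whenever their sign did not reverse. One-to-one pairs were an alternative chosen after seeing the data. Neither they nor pairing by nearest summit moved a main result. Pairing by nearest summit could change almost nothing, since only 2 C peaks overlapped 2 P peaks, and its values count among those that stayed. At a −log10 p limit of 10, the P to C ratio was 2.09, the shares common 86.8% of C and 41.3% of P peaks, the median log2 ratio 0.58, the gap in the share of higher pairs between strongest and weakest strength class 15.4 points and pairs within 25 bp 70.8%. With reciprocal overlap, the shares common were 77.95% and 39.5%, the gaps in them between strongest and weakest strength class 35.2 points in C and 63.5 in P cells, pairs higher in P cells 81.4%, the median 0.59, pairs within 25 bp 69.5% and pairs wider in P cells 72.4%. With summits within 100 bp, the shares common were 82.1% and 41.6%, and the C gap was 32.6 points. With equal list lengths, the shares common were 66.4% and 65.8%, their gaps 54.3 and 55.4 points, pairs higher 89.7%, the median 0.78, the strength gap −10.1 points (12.8 in the main lists), the spacing gap 3.46 points, pairs within 25 bp 70.8%, pairs wider 81.2% and pairs 2-fold lower 25. Equal lists drop the weaker P peaks by construction and leave fewer pairs. With −log10 p, pairs higher came to 84.3%, the median to 0.81 and the strength gap to 19.5 points. With fragments they came to 88.5%, 0.71 and 14.8 points, with 24 pairs 2-fold lower. Without high input background the shares common were 67.1% and 34.5%, their gaps 18.3 and 55.5 points, pairs higher 87.4%, the median 0.65, pairs within 25 bp 66.3%, and pairs 2-fold higher and lower 1999 and 14. Lists were filtered separately there, so a peak could lose its partner by construction, and the counts of 1999 and 14 come from fewer pairs. For the other moves the cause was not tested. The P list was the longer one and the median ratio stayed above 0 in each setting that bears on them. Sites under the calling threshold were not listed, and with 1 library of each kind no spread between cultures is known. No paired analysis was possible because each group has 1 library and no test was run.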

Other observations

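Chromosomes 1 to 19 and X were examined one by one. The number of P peaks per C peak went from 1.64 (1.501 to 1.80) on chromosome 5 to 2.64 (2.28 to 3.06) on chromosome X, with a median of 1.93 over the 20 chromosomes. All 20 intervals lay above 1. Chromosome 10 followed X with 2.34 (2.14 to 2.56), and chromosome 11 had 1.78 (1.63 to 1.94). The P sites named above on chromosome 10 lay over raised input background, and the part of that background in its ratio was not tested. On chromosome X 252 C peaks and 665 P peaks were listed, and 33.1% of the P peaks there were common, against 50.4% on chromosome 5. The median log2 P/C fold enrichment of pairs was above 0 on all 20 chromosomes and lay between 0.52 on chromosome 5 and 0.75 on chromosome 16. On chromosome X it was 0.69 over 221 pairs. The ratio of peak numbers therefore varied more between chromosomes than the ratio at shared sites. For the relative input background at pairs, the median log2 P/C ratio was 0.00 on chromosome X, the lowest of the 20, 0.06 on chromosome 5 and 0.21 on chromosome 18, the highest.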
